A study of Glycine max with 12 samples.

Results

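The genes described here are the soybean AP2/ERF transcription factors, with the proteins that the same wording in the gene descriptions brings along. A gene was taken when its description named an Integrase-type DNA-binding protein, an ethylene response factor or ethylene-responsive element, DREB, C-repeat, an ERF domain or a numbered "related to AP2" protein, with RAP2.7 left out. This gave 94 of 30459 genes that stand on 1 entry of the table (30498 entries). Of the 94, 59 are described as Integrase-type DNA-binding proteins, an older name for proteins with an AP2 domain. The family name holds for 88 of them. The other 6 match Arabidopsis DRIP2, which is described as DREB2A-interacting protein 2 and is a RING ubiquitin ligase, not an AP2/ERF protein. A further 21 genes have an Arabidopsis match in the AP2/ERF lists used here but another description, and are not among the 94.

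AP2/ERF proteins bind DNA through the AP2 domain and form one of the largest transcription factor families of plants. Members with a double AP2 domain, such as AINTEGUMENTA (ANT), AP2 and WRINKLED1 (WRI1), control organ growth, flower identity and oil synthesis in Arabidopsis. Members with a single domain include the DREB proteins of drought, heat and cold responses, and the ERF proteins, which act in ethylene and jasmonate responses, in oxygen sensing (group VII) and in the wax and cutin layer of the leaf surface (SHINE proteins). All roles given below come from Arabidopsis, through the Arabidopsis gene that the table pairs with each soybean gene, and are background.

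RNA was sequenced from very young leaves of soybean, cultivar AG1631, to ask how growth among weeds alters leaf transcripts. Each of 12 libraries held leaflets pooled from at least 8 plants of a single field plot, taken at the third-trifoliate stage in late June of 2008, 2009, 2010 or 2011. In 2008 and 2009 there was 1 weedy and 1 control plot, and in 2010 and 2011 there were 2 of each. The weeds were velvetleaf with buckwheat in 2008 (some 300 plants per m2) and in 2009 (some 48). They were flax in 2010 (some 600 plants per m2) and velvetleaf plus common sunflower in 2011 (some 160). Herbicide was used on the control plots: S-metolachlor in 2008, sethoxydim in 2009 and glyphosate in 2010. The controls of 2011 received both S-metolachlor and sethoxydim besides glyphosate and imazethapyr. Weeds and the absence of herbicide therefore go together in 2008, 2010 and 2011 and cannot be told apart. The 2009 spraying is dated June 26, after the 2009 sampling of June 25, so by these dates it came too late for the sampled leaves. Plots numbered 1 are taken to be the wide rows (76 cm) and plots numbered 2 the narrow rows (18 cm); this is an inference, because the labels tie spacing to the names of read files.

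Values are the deposited log2 FPKM, a level per transcript length, and all 12 libraries share 1 sorted distribution, so depth is unknown and a shift common to most genes cannot be seen. On the first principal component, which held 50.8% of the variance of all genes tested, the libraries of 2008 lay at -110 and -97.8 and the 10 others between -37.1 and 71.1. Leaf photosynthesis markers (11 genes for Rubisco, Rubisco activase and light-harvesting proteins) were present in every season: their summed linear level was 15400 to 16500 in 2008, 5130 to 9390 in 2009, 4640 to 7780 in 2010 and 9320 to 15600 in 2011. Markers of dividing cells (8 genes for B-type cyclins and KNOLLE, a list added after values were seen) summed to 132 and 178 in the libraries of 2008 and to between 275 and 356 in the later ones. Secondary-wall cellulose synthases of stem and petiole (12 genes) summed to between 78.5 and 207 over all libraries. In pooled leaves, fewer cells of a type and less RNA per cell cannot be told apart.

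All 94 genes passed the low-value filter, which asked for a log2 value of 1 or more in 3 or more of the libraries. Their mean level had a median of 2.47 on the log2 scale, against 3.21 over all genes. The range ran from 0.87, in RAP2.3 Glyma07g37410 and in Glyma15g00660, to 6.38 in RAP2.12 Glyma07g04950, a group VII ERF that senses oxygen through its own degradation. The next highest were RAP2.4 Glyma04g11290 at 5.64, a DREB protein of light and dehydration responses, RAP2.12 Glyma03g42450 at 5.28 and RAP2.2 Glyma16g01500 at 5.16, another group VII ERF. By subfamily there were 14 double-domain genes, 11 SHINE-type genes, 10 ERFs of group IX, 9 of group VII, 9 ERF repressors, 8 RAP2.4-type and 8 TINY-type DREBs, 6 DREB2 genes, 4 matches of the cytokinin response factor CRF10, 3 DREBs of group A-5, 1 ERF of group X and 5 genes in no list. None of the 94 matched the 6 CBF/DREB1 genes of the cold response, the 4 organ-boundary ERFs or the 3 RAV genes listed. Since the 94 were taken by description, this does not show that such genes are missing from the leaves.

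**Figure D1:**
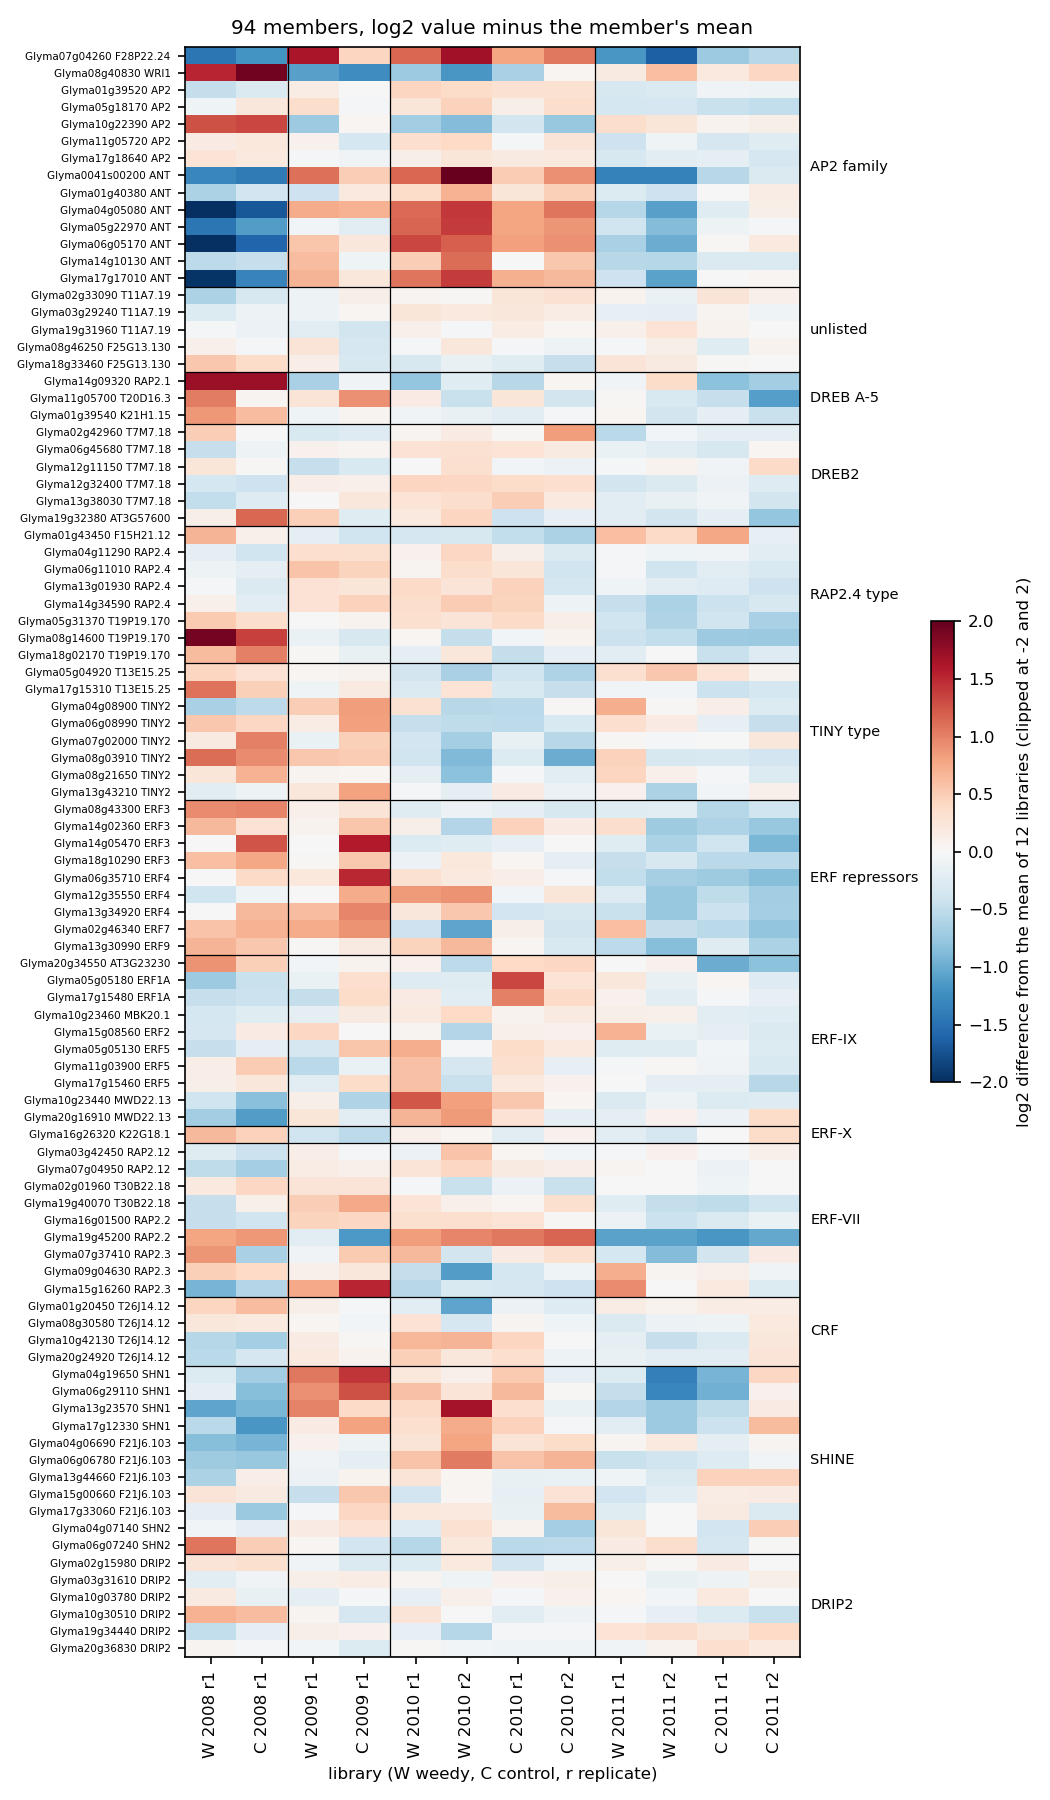
Deposited log2 value of each of the 94 genes minus its own mean over the 12 libraries, by library (weedy before control in each season, columns) and by subfamily (rows, with the Arabidopsis name given in the table), clipped at -2 and 2. All 7 ANT genes had their lowest season mean in 2008 and their highest in 2010, and no row separates all 6 weedy from all 6 control libraries.

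Over all 4 seasons, growth among weeds changed none of these genes past the test. The fit was limma on the log2 values with season as a covariate, with p-values adjusted by the Benjamini-Hochberg method over the 30456 genes tested. At an adjusted p under 0.05, 0 of 94 members were called, as were 0 of all genes (percent called 0.0). At an unadjusted p under 0.05 there were 9 members, 6 higher and 3 lower in weedy leaves, which is 9.57% of the members against 10.8% of all genes. The median difference, weedy minus control, was 0.01 over the members and -0.01 over all genes. In none of the 94 did the 6 weedy and 6 control libraries fall apart without overlap, which happened in 0.108% of all genes. The weedy plot was the higher one in all 6 pairs in 2 members (2.13%, against 2.88% of all genes) and the lower one in all 6 in 1 member (1.06%, against 2.8%).

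The smallest p on the higher side belonged to DRIP2 Glyma10g30510, whose Arabidopsis match marks the drought regulator DREB2A for degradation. Its level was lowest at 2.89, median 3.08 and highest at 3.75 in weedy libraries, against 2.62, 2.81 and 3.67 in control libraries. The weedy plot was the higher one in 6 of 6 pairs, yet the 2 treatments overlapped, and both libraries of 2008 were high. The difference was 0.26 ± 0.07 log2 (SE, n = 6 each), which did not pass (limma adjusted p = 0.244). Glyma10g23440, a match of Arabidopsis ERF105, a group IX gene that responds fast to stress, ran from 2.41 to 4.05 with a median of 2.82 in weedy libraries and from 1.97 to 3.34 with a median of 2.53 in control libraries. It was higher in the weedy plot in 5 of 6 pairs, by 0.47 ± 0.14 (limma adjusted p = 0.263). SHN2 Glyma06g07240, a regulator of cutin and wax synthesis, ran from 2.34 to 3.97 with a median of 3.09 in weedy libraries and from 2.36 to 3.40 with a median of 2.55 in control libraries, a difference of 0.42 ± 0.13 (limma adjusted p = 0.275). The others of smallest p on this side were both matches of AT4G13040, Glyma18g33460 at 0.21 ± 0.07 and Glyma08g46250 at 0.22 ± 0.09, and the ERF034 match Glyma17g15310 at 0.29 ± 0.13. None of these 3 passed either.

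On the lower side the smallest p belonged to Glyma02g33090, a match of AT2G41710, an AP2-domain gene in no list. It ran from 2.34 to 3.04 with a median of 2.94 in weedy libraries, against 2.65 to 3.27 with a median of 3.15 in control libraries. The weedy plot was the lower one in 6 of 6 pairs, and the treatments overlapped across seasons. The difference of -0.24 ± 0.06 did not pass (limma adjusted p = 0.196). The 5 that followed were TINY2 Glyma07g02000 at -0.34 ± 0.13, the ESE3 match Glyma15g00660 at -0.38 ± 0.15, ERF1A Glyma17g15480 at -0.38 ± 0.17, TINY2 Glyma13g43210 at -0.27 ± 0.13 and ERF1A Glyma05g05180 at -0.43 ± 0.22, with none past the test. TINY2 is a DREB protein and ERF1A an activator of ethylene- and jasmonate-responsive genes. Across subfamilies the RAP2.4-type DREBs had differences above 0 in 8 of 8 genes, with a median of 0.15 and a range of 0.03 to 0.27, none called. Of all genes tested, 14592 of 30456 were above 0. At an unadjusted p under 0.05 there were 0 of these 8, against 10.8% of all genes. The 8 match only 3 Arabidopsis genes, and the subfamily was singled out after the values were seen.

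Between seasons, by contrast, most members differed. The F test over the 4 seasons called 70 of 94 (74.5%), where 67.1% of all genes were called, so the share called was close to the background. The range of season means was wider among the members, with a median of 0.91 log2 against 0.65 over all genes. All 14 double-domain genes, all 8 RAP2.4-type genes and all 3 DREBs of group A-5 were called, as were 8 of 9 ERF repressors and 7 of 9 group VII genes. Among group IX ERFs 3 of 10 were called, and among DRIP2 genes 2 of 6. Without the libraries of 2008 the F test called 43 members, where 37.0% of all genes were called. Season, weather, weed species and density, control herbicide, sampling date and anything else done once per season differ together and cannot be told apart. Row spacing differs in part as well: the plots of 2008 and 2009 are all taken to be wide rows, and those of 2010 and 2011 hold both spacings. The p-values rest on the spread between plots within seasons.

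Of the 6 widest ranges of season means, 4 belonged to ANT genes, with 3.13 log2 in Glyma04g05080 at the top, 1 to WRI1 and 1 to the AIL1 match Glyma07g04260 (2.49). ANT keeps cells of the growing leaf and flower dividing, and so sets organ size in Arabidopsis. All 7 matches were called over seasons, and 6 of 7 rose in the later seasons relative to 2008. In Glyma04g05080 the weedy and control libraries read 1.54 and 2.20 in 2008 and 4.65 and 4.59 in 2009. In 2010 its 2 weedy libraries read 5.04 and 5.32 and its 2 control libraries 4.69 and 4.97, and in 2011 the weedy ones read 3.33 and 2.82 and the control ones 3.66 and 4.02. All later libraries lay above both of 2008, and the 4 of 2010 above the 4 of 2011. Its later seasons averaged 4.36, against 1.87 in 2008, a difference of 2.49 ± 0.25 (SE, 10 and 2 libraries, limma adjusted p = 4.44e-05). The next largest rises were also ANT genes, 2.19 ± 0.27 in Glyma06g05170, 1.99 ± 0.30 in Glyma17g17010 and 1.72 ± 0.39 in Glyma0041s00200. The last was not past the test without the weedy library of 2008 (1.71, limma adjusted p = 0.0503). Glyma14g10130, the lowest of the 7 at a mean of 1.26, read 0.62 ± 0.24 and did not pass.

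In 2011 all 7 ANT genes were lower than in 2010, each past the test, and in all 7 the 4 libraries of 2011 lay below the 4 of 2010. The falls ran from Glyma0041s00200, at -2.05 ± 0.35 (limma adjusted p = 0.00168), and Glyma04g05080, at -1.55 ± 0.23 (limma adjusted p = 0.000881), to Glyma01g40380, at -0.58. The largest fall of any member was in the AIL1 match Glyma07g04260, a relative of ANT. This gene read 0.86 and 0.40 in weedy and 1.31 and 1.48 in control libraries of 2011, against 3.18 and 3.71 in weedy and 2.82 and 3.08 in control libraries of 2010. The seasons did not overlap, and the difference was -2.18 ± 0.31 (SE, n = 4 each, limma adjusted p = 0.000714). Between 2008 and later seasons, 7 of 8 dividing-cell markers rose, as most ANT genes did, against 27.3% of all genes. That marker list was added after values were seen. Of the photosynthesis markers 8 of 11 fell, against 24.6% of all genes. Between 2011 and 2010, 2 of 8 dividing-cell markers fell (25.0%), near the 20.7% of all genes, while all 7 ANT genes fell. In that comparison 9 of 11 photosynthesis markers rose, against 20.5% of all genes. The part of leaf age or cell makeup in these differences was not tested.

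**Figure D2:**
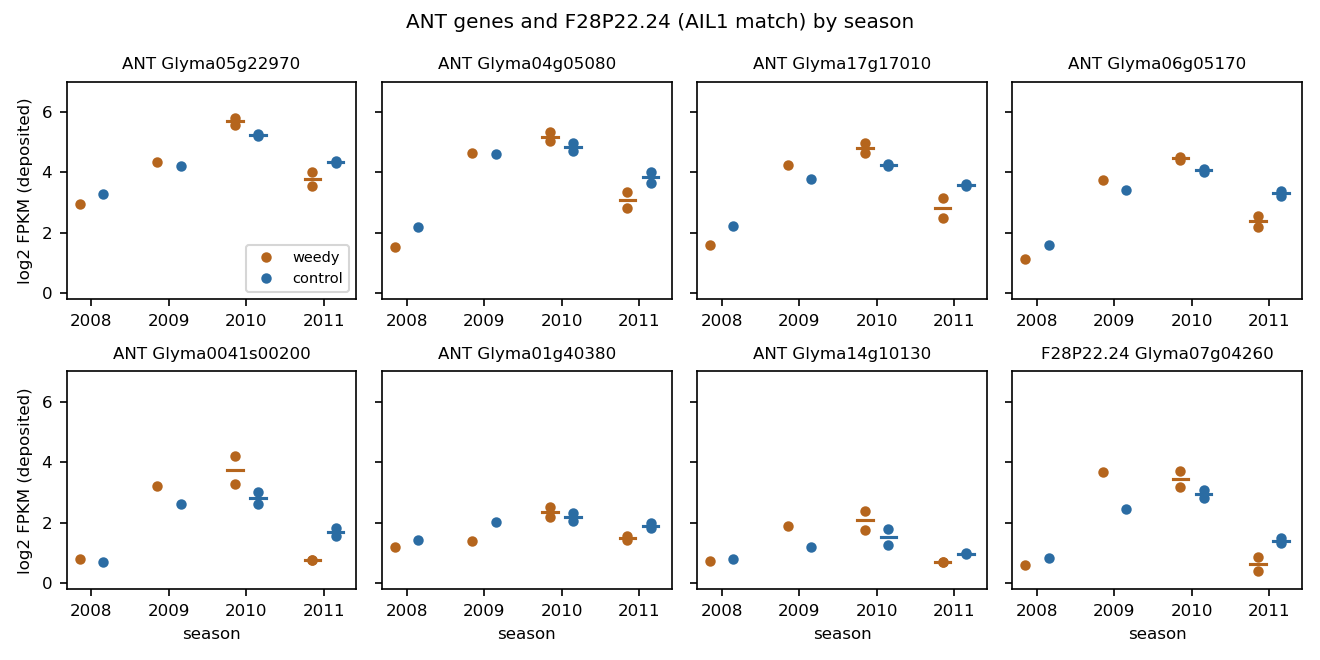
Deposited log2 FPKM of the 7 ANT genes and of the AIL1 match by season, 1 point a library, weedy left of control, with a bar at the mean where there were 2 libraries. All 7 ANT genes were lower in 2011 than in 2010, and in all 7 the weedy mean stood above the control mean in 2010 and both weedy points below both control points in 2011.

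The remaining double-domain genes did not share 1 pattern. WRI1 Glyma08g40830, which switches on fatty acid synthesis, read 3.54 and 3.96 in the weedy and control libraries of 2008 and 0.93 and 0.78 in those of 2009. In 2010 it read 1.30 and 0.86 in weedy and 1.38 and 2.06 in control libraries, and in 2011 2.20 and 2.62 in weedy and 2.22 and 2.43 in control libraries. It was high in 2008 and, on average, lowest in 2009. Its later seasons averaged 1.54, against 3.75 in 2008, a difference of -2.21 ± 0.23 (limma adjusted p = 5.21e-05), and it rose by 0.97 ± 0.21 in 2011 relative to 2010 (limma adjusted p = 0.00523). Of the 5 genes matched to AP2, which sets floral organ identity, 4 fell in 2011 by 0.45 to 0.70 log2. The fifth, Glyma10g22390, rose by 0.86 ± 0.16 (limma adjusted p = 0.00268), and it fell in later seasons relative to 2008 by 1.57 ± 0.18. In that comparison AP2 Glyma17g18640 fell by 0.27 and AP2 Glyma01g39520 rose by 0.46. The double-domain genes counted 2 rises and 12 falls between 2011 and 2010, where 20.5% of all genes rose and 20.7% fell, and over the other settings tried the falls numbered 10 to 12.

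Between the later seasons and 2008, 28 members rose and 22 fell, 50 in all (53.2%), against 51.9% of all genes, of which 27.3% rose and 24.6% fell. The members' median difference was 0.00 and that of all genes 0.02. The libraries did not overlap in 16 members that were higher and 17 that were lower in the later seasons (among all genes, 20.8% and 18.4%). With the weedy library of 2008 left out the count was 29, 14 rises and 15 falls, where 31.6% of all genes were called, since 2008 then rests on 1 library. After WRI1 the largest falls were in RAP2.1 Glyma14g09320, a DREB repressor of drought genes, and in the ERF060 match Glyma08g14600. RAP2.1 read 3.02 and 3.03 in the weedy and control libraries of 2008 and between 0.48 and 1.66 in the 10 later ones. Its difference was -2.08 ± 0.30 (limma adjusted p = 0.000343). Glyma08g14600 read 4.06 and 3.51 in the weedy and control libraries of 2008 and between 1.40 and 2.22 afterwards, a difference of -1.95 ± 0.17 (limma adjusted p = 1.85e-05). Both genes separated 2008 from every later library.

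Between 2011 and 2010 the balance of the members leaned downward. In 2011, 9 members rose and 34 fell, 43 in all (45.7%), against 41.2% of all genes. The share that rose was 9.57% against 20.5% of all genes, and the share that fell was 36.2% against 20.7%. The median difference was -0.32 log2 over the members and -0.02 over all genes. All 4 libraries of 2011 lay above all 4 of 2010 in 10 members (10.6%, against 18.5% of all genes) and below them in 31 (33.0%, against 19.4%). Outside the double-domain genes, falls outnumbered rises among ERF repressors (4 of 9 fell, 0 rose), SHINE-type genes (4 of 11, 0 rose), RAP2.4-type DREBs (4 of 8, 1 rose), group VII ERFs (4 of 9, 1 rose) and DREB2 genes (3 of 6, 0 rose). TINY-type DREBs went the other way, with 2 of 8 rising, 0 falling and a median of 0.40. The rises after WRI1 and Glyma10g22390 were 0.84 ± 0.18 in the ERF061 match Glyma01g43450 and 0.81 ± 0.12 in the ERF034 match Glyma05g04920, both genes of the DREB branch (limma adjusted p = 0.00526 and 0.000845).

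**Figure D3:**
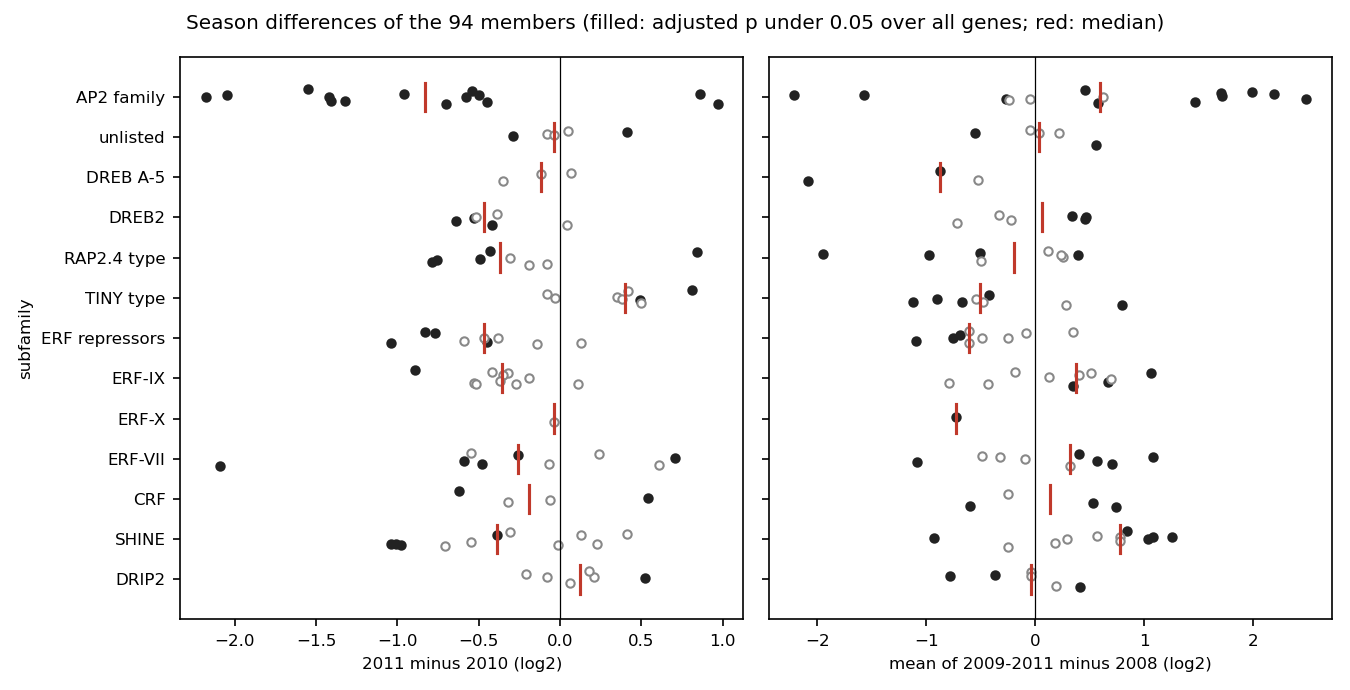
Difference of each of the 94 genes in log2 FPKM between 2011 and 2010 (left) and between the mean of 2009 to 2011 and 2008 (right), by subfamily; filled points have an adjusted p under 0.05 over all genes, open ones do not, and red lines are medians. In the left panel 34 filled points lie below 0 and 9 above it.

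Among the oxygen-sensing ERFs of group VII, whose members switch on fermentation genes when oxygen is low, the 2 RAP2.2 copies had unlike season means, a contrast that was not tested. RAP2.2 Glyma19g45200 read 5.14 and 5.23 in the weedy and control libraries of 2008 and 4.14 and 3.21 in those of 2009. Its weedy libraries read 5.20 and 5.34 and its control libraries 5.41 and 5.52 in 2010. In 2011 it read 3.29 and 3.29 in weedy and 3.19 and 3.34 in control libraries. It was thus high in 2008 and 2010 and low in 2009 and 2011 under both treatments. The difference between 2011 and 2010 was -2.09 ± 0.16 (limma adjusted p = 3.58e-05), with no overlap between the seasons. Its namesake Glyma16g01500 had season means of 4.73, 5.59, 5.40 and 4.92 from 2008 to 2011, a difference of -0.48 ± 0.10 between 2011 and 2010 (limma adjusted p = 0.00472), and was high in 2009, where Glyma19g45200 was low. RAP2.12 Glyma07g04950, with season means of 5.79, 6.50, 6.62 and 6.36, rose by 0.71 ± 0.09 in later seasons relative to 2008 (limma adjusted p = 0.000172). The 3 RAP2.3 copies, at mean levels of 0.87, 1.73 and 2.48, and the HRE2 matches Glyma02g01960 and Glyma19g40070, at 1.07 and 1.68, were the low end of the group, and Glyma07g37410 was listed at 0.00 in 1 weedy library of 2011. RAP2.3 Glyma15g16260 rose by 1.08 ± 0.28 in later seasons (limma adjusted p = 0.00892), and its highest value, 4.01, was the control library of 2009.

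**Figure D4:**
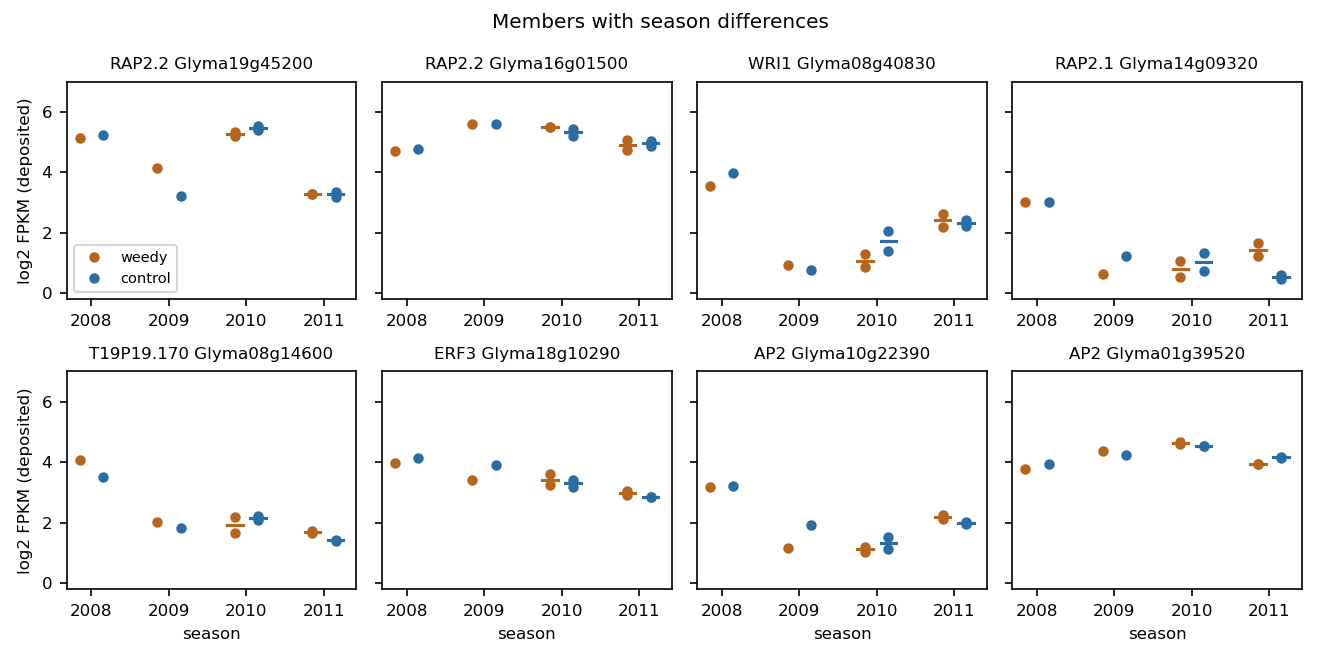
Deposited log2 FPKM of 8 genes by season, 1 point a library, weedy left of control, with a bar at the mean where there were 2 libraries. RAP2.2 Glyma19g45200 is low in 2009 and 2011 while its namesake Glyma16g01500 is highest in 2009, and WRI1, RAP2.1, Glyma08g14600 and AP2 Glyma10g22390 are highest in 2008.

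ERF repressors carry an EAR motif and switch genes off. ERF3 Glyma18g10290, the highest of them, had season means of 4.06, 3.66, 3.36 and 2.91 from 2008 to 2011, and both season contrasts passed (-0.75 ± 0.14 for later seasons against 2008, -0.45 ± 0.13 for 2011 against 2010, limma adjusted p = 0.00149 and 0.0181). Its namesake Glyma08g43300 fell by 1.09 ± 0.10 in later seasons (limma adjusted p = 2.6e-05), and in 2011 against 2010 it read -0.14 ± 0.09 and did not pass. ERF4 Glyma12g35550 fell by 1.04 ± 0.24 in 2011 (limma adjusted p = 0.00728). Among group IX ERFs, the activators of pathogen, ethylene and jasmonate responses, 3 of 10 rose in later seasons, close to the 27.3% of all genes. The largest of these rises were in the ERF105 matches Glyma20g16910, at 1.06, and Glyma10g23440, at 0.67 ± 0.18. Of the same 10, 1 fell in 2011, against 20.7% of all genes. This was Glyma10g23440, at -0.89 ± 0.17 (limma adjusted p = 0.00251). The highest of this group was the ERF106 match Glyma10g23460, at a mean of 3.63.

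The SHINE-type genes held 4 SHN1 matches, 5 ESE3 matches and 2 genes with the deposited name SHN2. The last 2 are paired with AT5G25390, which the lists used here call SHN3. All 4 SHN1 genes were called over seasons, against 67.1% of all genes. In later seasons relative to 2008, 2 of 4 rose, Glyma13g23570 by 1.26 and Glyma17g12330 by 1.08, against 27.3% of all genes. The 2 SHN2 genes, at mean levels of 3.37 in Glyma04g07140 and 2.91 in Glyma06g07240, gave 1 call: Glyma06g07240 fell by 0.93 ± 0.17 in later seasons (limma adjusted p = 0.00117), and Glyma04g07140 read 0.18 ± 0.24. Of the ESE3 matches, 2 of 5 rose in later seasons and fell in 2011. Among all genes, 27.3% rose in later seasons and 20.7% fell in 2011. Among DREB2 genes, which act in drought and heat, the highest was the DREB2C match Glyma13g38030, at a mean of 4.98. It rose by 0.46 ± 0.11 in later seasons and fell by 0.53 ± 0.10 in 2011 (limma adjusted p = 0.00672 and 0.00311). TINY2 Glyma04g08900, the highest TINY-type gene, rose by 0.80 ± 0.27 in later seasons (limma adjusted p = 0.0285). Of the 5 other TINY2 genes 2 fell, against 24.6% of all genes. Of the 4 CRF10 matches, Glyma20g24920, the highest, and Glyma10g42130 rose in later seasons, by 0.53 and 0.74, and Glyma01g20450 fell by 0.60. In the DREB group A-5, 0 of 3 were called in 2011, against 41.2% of all genes. The highest of the 3, the DEAR2 match Glyma01g39540, fell by 0.87 ± 0.13 in later seasons (limma adjusted p = 0.000322).

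The weed effect was next taken within each replicated season, from the 8 libraries of 2010 and 2011 with 2 in each group. In 2010, 0 members were called and 0.0% of all genes. At an unadjusted p under 0.05 there were 13 members, 10 higher and 3 lower in weedy leaves (13.8%, against 8.64% of all genes). The smallest p values on the higher side were in ERF4 Glyma13g34920, at 0.74 ± 0.17, ERF4 Glyma12g35550, at 0.78 ± 0.20, and the ERF105 match Glyma10g23440, at 0.74 ± 0.20 (limma adjusted p = 0.522, 0.527 and 0.558). On the lower side they were in ERF1A Glyma05g05180, at -1.05 ± 0.33, the AT3G23230 match Glyma20g34550, at -0.62 ± 0.21, and ERF1A Glyma17g15480, at -0.72 ± 0.26 (limma adjusted p = 0.575 for each). In 2011, again, 0 members were called and 0.0% of all genes, with 13 members at an unadjusted p under 0.05, 4 higher and 9 lower (13.8%, against 12% of all genes). The smallest p values on the lower side were in ANT Glyma06g05170, at -0.93 ± 0.14, the ESE3 match Glyma13g44660, at -0.65 ± 0.16, and ANT Glyma04g05080, at -0.77 ± 0.21 (limma adjusted p = 0.185, 0.234 and 0.248). On the higher side they were in Glyma20g34550, at 0.94 ± 0.21, TINY2 Glyma06g08990, at 0.57 ± 0.16, and RAP2.1 Glyma14g09320, at 0.91 ± 0.28 (limma adjusted p = 0.216, 0.248 and 0.283).

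The ANT genes had opposite signs in the 2 seasons: the weed difference was above 0 in 7 of 7 in 2010, with a median of 0.45, and below 0 in 7 of 7 in 2011, with a median of -0.76. Over all 94 members 31 had this order of signs and 22 the reverse, against 32.2% and 26.6% of all genes. In 2010 the weedy and control libraries of 5 of the 7 ANT genes did not overlap, with the weedy ones higher, which held for 20.4% of all genes. In 2011 those of 7 of 7 did not overlap, with the weedy ones lower, which held for 27.0%. The 7 match 1 Arabidopsis gene, and near-identical copies may share reads, so they are not 7 separate observations. One of the weedy libraries of 2011, replicate 2, is the one whose second read file is called corrupt. In Glyma06g05170 the weedy libraries of 2010 read 4.52 and 4.39, against 4.01 and 4.11 in control libraries. In 2011 the weedy libraries of this gene read 2.55 and 2.20, against 3.21 and 3.39 in control libraries. The test of the difference between the seasons' effects called 0 members and 0.0% of all genes, with 21 members at an unadjusted p under 0.05 (22.3%, against 13.7% of all genes), 7 higher and 14 lower. Glyma06g05170 had the smallest p, with a difference of -1.32 ± 0.20 that did not pass (limma adjusted p = 0.279). It was followed by Glyma17g17010 at -1.32 ± 0.30 and Glyma0041s00200 at -1.85 ± 0.43 (limma adjusted p = 0.279 for both).

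The photosynthesis markers took the reverse order, with 11 of 11 below 0 in 2010 (median -0.21) and 11 of 11 above 0 in 2011 (median 0.46), none called. Their summed level was 4640 to 4830 in weedy and 6170 to 7780 in control libraries of 2010, and 11800 to 15600 in weedy and 9320 to 10000 in control libraries of 2011. The dividing-cell markers summed to 283 and 351 in weedy and 348 and 356 in control libraries of 2010, and to 275 and 278 in weedy and 285 and 335 in control libraries of 2011. The secondary-wall markers summed to 103 and 153 in weedy libraries of 2010, with both control libraries between them, and to 78.5 and 100 in weedy and 110 and 207 in control libraries of 2011. The part of these markers in the ANT difference was not tested. Against the ANT order, Glyma20g34550, a match of AT3G23230 (TDR1), read 1.96 and 1.36 in weedy and 2.27 and 2.29 in control libraries of 2010, and 1.87 and 1.96 in weedy and 0.88 and 1.06 in control libraries of 2011. Its difference between seasons was 1.56 ± 0.30 (limma adjusted p = 0.279), followed on that side by RAP2.1 at 1.15 ± 0.40 and TINY2 Glyma06g08990 at 0.63 ± 0.22 (limma adjusted p = 0.312 and 0.316). When weedy replicate 1 of 2010 was left out, ANT Glyma0041s00200 and Glyma20g34550 passed, at -2.33 and 1.86 (limma adjusted p = 0.042 and 0.0422). The 2010 effect then passed in 2 members, Glyma0041s00200 at 1.39 and the CRF10 match Glyma01g20450 at -0.87 (limma adjusted p = 0.0489 and 0.0465). Of all genes, that fit called 0.88% for the 2010 effect and 0.896% for the difference between seasons. In that fit the weedy group of 2010 is 1 library, taken to vary like the others.

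**Figure D5:**
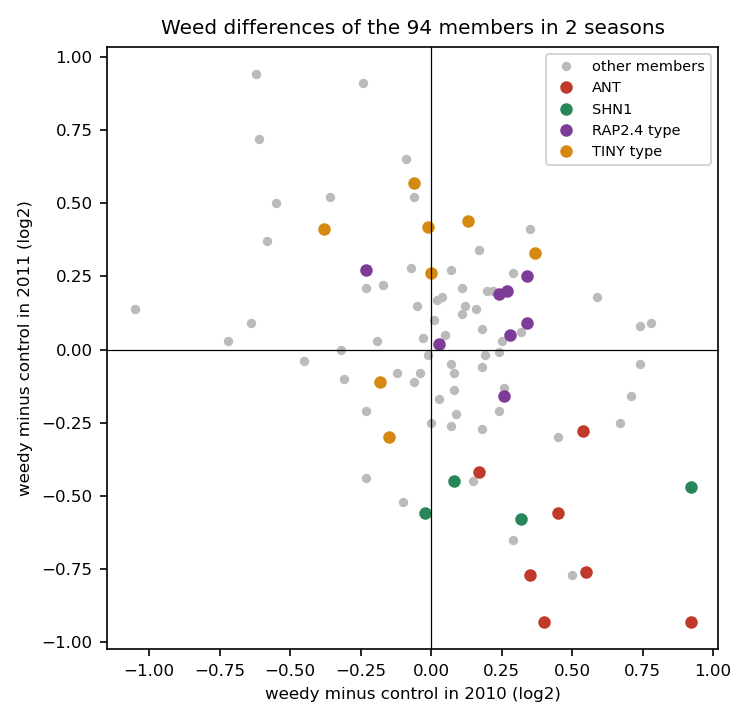
Weedy minus control difference of each of the 94 genes in log2 FPKM in 2010 (horizontal) and in 2011 (vertical), with 2 libraries in each group and season. The 7 ANT genes lie at the lower right, above 0 in 2010 and below 0 in 2011, and none of the 94 points passed the test in either season.

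The 4 SHN1 genes lay below 0 in 2011, from -0.58 to -0.45, as did 16218 of the 30456 genes tested. Both weedy libraries lay below both control libraries in 1 of the 4, against 27.0% of all genes. In 2010 the 4 SHN1 genes read -0.02 to 0.92, and none was called in either season. The authors' deposited table holds Cuffdiff q-values for weedy against control within the same 2 seasons. By these, 6 members had a q under 0.05 in 2010 (6.38%, against 2.46% of all genes), 5 higher and 1 lower in weedy leaves. In 2011 the authors' deposited table gave 8 members (8.51%, against 7.67%), 3 higher and 5 lower. The ANT gene Glyma0041s00200 was among the 2010 ones, with a q of 6.43e-05 in the authors' deposited table. It was not among those of 2011, at a log2 ratio of -0.93. Its weedy libraries of 2011 read 0.76 and 0.75, under the filter level of 1. The ANT genes Glyma04g05080, Glyma06g05170 and Glyma17g17010 were among the 5 lower in 2011, with q-values in the authors' deposited table of 0.000943, 0.000185 and 0.00269. The CRF10 match Glyma10g42130 stood on both lists in the authors' deposited table, higher in 2010 with a log2 ratio of 0.45 (q = 8.57e-07) and lower in 2011 with -0.30 (q = 0.000478). In limma its adjusted p was 0.588 in 2010 and 0.631 in 2011.

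Row spacing, narrow minus wide, called 0 members and 0.0% of all genes, with 12 members at an unadjusted p under 0.05 (12.8%, against 7.89% of all genes), 3 higher and 9 lower in narrow rows. On the lower side the smallest p values were in the DEAR3 match Glyma11g05700, at -0.55 ± 0.10, ERF7 Glyma02g46340, at -0.61 ± 0.14, and TINY2 Glyma08g03910, at -0.52 ± 0.15 (SE, n = 4 each, limma adjusted p = 0.415, 0.433 and 0.486). On the higher side they were in RAP2.1, at 0.42 ± 0.13, SHN2 Glyma06g07240, at 0.34 ± 0.13, and ANT Glyma0041s00200, at 0.40 ± 0.16. Spacing and the replicate number are the same split and cannot be told apart.

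Genes around the family were followed through 5 lists. In weedy against control none of them had a called gene: 0 of 30 for ethylene perception and signalling, 0 of 9 for ethylene synthesis, 0 of 12 for regulators of CBF and stress ERF genes, 0 of 10 for CBF and DREB2 targets with heat factors, and 0 of 15 for low-oxygen genes. The smallest p values in ethylene synthesis were in ACS10 Glyma11g03070, annotated as an ACC synthase, at 0.54 ± 0.13, higher in the weedy plot in 6 of 6 pairs (limma adjusted p = 0.183), and in the ethylene-forming enzyme Glyma17g01330, at 0.48 ± 0.13 (limma adjusted p = 0.209). In perception they were in the receptors ERS1 Glyma03g37470, at -0.18 ± 0.07, and EIN4 Glyma03g41220, at -0.27 ± 0.10. Among low-oxygen genes, targets of the group VII ERFs, they were in the pyruvate decarboxylase matches Glyma07g18570, at 0.32 ± 0.09, and Glyma18g43460, at 0.30 ± 0.09. At an unadjusted p under 0.05 there were 8 of 15 low-oxygen genes, 4 higher and 4 lower, with a median difference of 0.04 over the list. That share was 53.3%, against 10.8% of all genes. In the other lists it was 13.3% for ethylene perception, 33.3% for ethylene synthesis, 0.0% for regulators and 40.0% for targets with heat factors. Among regulators the smallest p values were in ICE1 Glyma04g37750, at -0.31 ± 0.15, and ICE1 Glyma16g26290, at -0.17 ± 0.11. Among targets and heat factors they were in HSFA2 Glyma17g34540, at -1.18 ± 0.17, and HSFA2 Glyma14g11030, at -0.51 ± 0.14, heat shock factors that act downstream in heat responses. Between 2011 and 2010 the low-oxygen genes counted 3 rises and 7 falls of 15, ethylene perception 4 and 3 of 30, ethylene synthesis 2 and 1 of 9, regulators 4 and 0 of 12, and targets with heat factors 2 and 5 of 10, where 20.5% of all genes rose and 20.7% fell.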

How the data were processed

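The authors deposited log2 FPKM values per library, per the file headers, annotated with Phytozome 9.0 gene models, and log2 ratios of weedy to control per season. TopHat 1.0, Cufflinks 1.0 and Cuffdiff 1.0 are the tools listed in the submitters' processing notes. The table also holds p-values and q-values that the authors obtained with Cuffdiff. Sorted values are the same in all 12 libraries, and the step that did this is unstated in the labels and headers. Read depth is unknown, strand is not stated, and near-identical gene copies may share reads. The second read file of weedy replicate 2 of 2011 is called corrupt in its label, with no word on how that library was then handled.

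Entries sharing an identifier (39) were left out, and 30456 of 30459 genes reached a log2 value of 1 in 3 or more libraries and were kept. The fits used R 4.3.3 and limma 3.58.1, moderated by eBayes with its trend and robust settings (which call statmod 1.5.0), on the deposited log2 values, since they were log2 already, and adjusted by the Benjamini-Hochberg method over all genes tested. The fit with season and treatment used 12 libraries, and effects within 2010 and 2011 and of row spacing used 8. The fit with season and treatment was tested on simulated data. Alternatives were another scale, other filters, plain eBayes, blocks, no season term, and leaving out libraries or seasons. Plots are the replicates, and p-values rest on the spread between them. In the fit over 4 seasons that spread also holds any change of the weed effect between seasons. In fits without a spacing term it also holds row spacing, since the 2 plots of a group in 2010 and 2011 differ in it. Families and pathways were joined by the Arabidopsis locus in the table. No identifier matched the reference gene table (0), so no sequences are shown.

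The members and lists were chosen with earlier results of these data known. Named were, for the weed effect over all seasons, the 6 members of smallest p on each side, elsewhere the 4 largest rises and the 4 largest falls past the threshold (or the 3 of smallest p a side), the 6 widest season ranges, the highest member of each subfamily and 2 genes per pathway list. Other genes were named after their values were seen.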

Additional observations from a re-analysis of the deposited data

Results flagged for a closer look

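Within each treatment, a library was looked at that stood apart from the other 5 (gap to its neighbour divided by the range, Dixon's criterion). This was done for 42 named members in 2 treatments, 84 groups of 6 libraries. A chance rate of 1 in 20 groups holds only for like libraries, while each group spans 4 seasons with 1 library of 2008. Some members were also named for their difference from 2008, so no excess over chance can be read. The same count was not made over all genes. In these groups 10 libraries stood apart, 9 of them from 2008. In the weedy libraries these were the DEAR2 match Glyma01g39540 at 3.39 (others 2.16 to 2.56), Glyma02g33090 at 2.34 (others 2.84 to 3.04) and the ERF060 match Glyma08g14600 at 4.06 (others 1.65 to 2.18), all of 2008. In the control library of 2008 they were Glyma02g33090 at 2.65, ANT Glyma06g05170 at 1.61, RAP2.12 Glyma07g04950 at 5.70, DRIP2 Glyma10g30510 at 3.67, RAP2.1 Glyma14g09320 at 3.03 and ANT Glyma17g17010 at 2.22. The tenth was TINY2 Glyma13g43210 in the control library of 2009, at 2.46 (others 1.53 to 1.81).

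In 9 of the 42 named members both weedy libraries lay on 1 side of both control libraries in 2010 and on the other side in 2011. Over all 94 members there were 14 (14.9%), against 12.5% of all genes. The weedy libraries were higher in 2010 and lower in 2011 in 7 of the 9. The effect of 2011 minus that of 2010 was -1.85 in ANT Glyma0041s00200, -1.32 in ANT Glyma06g05170, -1.32 in ANT Glyma17g17010, -1.12 in ANT Glyma04g05080 and -1.01 in ANT Glyma05g22970. It was -1.26 in the AIL1 match Glyma07g04260 and -0.95 in the ESE3 match Glyma13g44660. The reverse order was seen in Glyma20g34550, at 1.56, and ERF7 Glyma02g46340, at 1.34. The test of that difference did not pass for any of the 9 (limma adjusted p between 0.279 and 0.340).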

How the results depend on the processing

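The 58 named gene and comparison values were recomputed under other settings, giving 914 values, of which 911 kept their direction and their side of the threshold and 0 reversed. The 3 others concern leaving out a single weedy library and stand beside their genes in the results. Leaving out each library in turn, the counts of members called ran from 58 to 68 over seasons, 29 to 54 for later seasons against 2008, 33 to 46 for 2011 against 2010, 0 to 2 for the weed effect of 2010 and 0 to 2 for its difference from 2011, and stayed at 0 for weedy against control, the weed effect of 2011 and row spacing. Without the season 2008, chosen after seeing the data, the season count was 43. The replicate block called 0 members in weedy against control and in the seasonal weed effects, as without it. Over all genes, the difference between the weedy plots of a season was correlated with that between the control plots, taken in the same order of numbers. This correlation of differences, not of levels, was -0.0478 in 2010 and 0.0484 in 2011, too low to pair the numbers in the main fits. The counts of pairs in the results join same-numbered plots of a season and are descriptive only. Each season of 2008 and 2009 has 1 plot a treatment, and the unknown depth leaves low values, near 0 in several members, without a counting error.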
